A study of Mus musculus with 4 samples.

Results

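Liver-made plasma proteins of the acute phase response, 10 in number, were followed at the mRNA level in livers of fasted mice with and without an altered copy of Cnot3. They were 7 positive acute phase proteins (Apcs, Crp, Hp, Hpx, Itih3, Itih4 and Fgl1) and 3 negative ones (Alb, Ttr and Ahsg). A probe set, the group of probes that reads a transcript on the array, was taken when the platform annotation gave it exactly 1 gene symbol and that symbol was among these. This gave 13 probe sets of 45101 on the array, 4 of them for Ttr and 1 for each of the other genes. All 10 genes passed the filter on dim probe sets, among 13379 genes tested. Total liver RNA of 4 male C57BL/6J mice was hybridised, 1 mouse to each one-colour Affymetrix array. The animals were 12 weeks of age, had been kept on normal chow, and were housed singly without food for 24 h. The groups were 2 wild-type mice and 2 Cnot3+/- mice. Both groups share the strain, the sex, the age and the fast, and the labels used here do not describe how the Cnot3 allele was made or whether the mice were littermates.

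The acute phase response is the change in hepatocyte output of plasma proteins that follows injury or infection. Interleukin-6 acting through STAT3, and interleukin-1 acting through NF-kappaB and C/EBP factors, raise the transcripts of the positive proteins, while those of the negative proteins, such as albumin and transthyretin, decline. In the mouse the pentraxin Apcs (serum amyloid P) is a strong responder and Crp a weak one, the reverse of the human pattern. Cnot3 belongs to CCR4-NOT, the complex that removes poly(A) tails from mRNAs and so starts their decay.

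The 4 arrays had median log2 values between 4.62 and 4.66, and precision is limited by the number of arrays, 2 per group. Cnot3 itself differed by -0.03 (SE 0.25), so the measurement did not bear out the genotype label. The sources used here do not say where its probes lie relative to the altered part. Directions below are those of the arrays as labelled. The pair labelled Cnot3+/- differed at least 2-fold in 432 genes, against 74 for the wild-type pair. Cnot3+/- 2 stood furthest from wild-type, with 391 and 321 such genes against wild-type 1 and wild-type 2. Hepatocyte markers, among them Alb and Ttr, had a median difference of 0.06 over 11 genes. Macrophage and Kupffer cell markers split the Cnot3+/- pair: the mean log2 value of 12 markers was 7.58 on Cnot3+/- 1 and 9.68 on Cnot3+/- 2, against 7.83 and 8.02 in wild-type. The split was not theirs alone. T and NK cell markers had means of 4.68 and 5.83 on these arrays, against 4.86 and 4.83 in wild-type. Stellate and fibroblast markers had 6.73 and 7.60, against 7.06 and 7.01. The Cnot3+/- means lay closer for neutrophil markers, at 4.82 and 5.06, and for B cell markers, at 5.71 and 5.75. All 9 sinusoidal endothelial markers had differences below 0, where 47.9% of all genes tested had one above 0. Their mean values were 6.72 and 7.53 against 7.56 and 7.71 in wild-type. In whole liver, a smaller share of a cell type and less RNA per cell cannot be told apart. The part of these shifts in the values of the acute phase genes was not tested. Both Cnot3+/- values of Apcs, Fgl1, Hp, Hpx, Itih3 and Ahsg were above both wild-type values, where 14.1% of all genes tested were so.

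All 7 positive acute phase genes had higher mean values in the arrays labelled Cnot3+/-, and none passed the test across all genes. The differences ran from 0.22 for Hp to 1.16 for Apcs on the log2 scale, with a median of 0.29. Over all genes tested the median difference was -0.0087, and 47.9% of genes had a difference above 0. None of the 10 genes was called by limma at an adjusted p under 0.05, where 0.0149% of all genes were called. At an unadjusted p under 0.05 there were 2 of the 10, Apcs and Fgl1, where the share over all genes was 3.59%. Without limma's moderation of variances there were again 2, Hpx and Ahsg, where the share over all genes was 4.55%, and 0 passed the adjustment. The groups did not overlap in 5 of the 7 positive genes, where 14.1% of all genes tested were higher without overlap. An exact permutation test of 2 against 2 arrays cannot go below 0.333, so the p-values rest on the spread that limma pools over genes. Nothing links the numbering of the mice across genotypes. Each moderated p-value combines the gene's own spread between these 4 animals with that pooled spread.

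**Figure D1:**
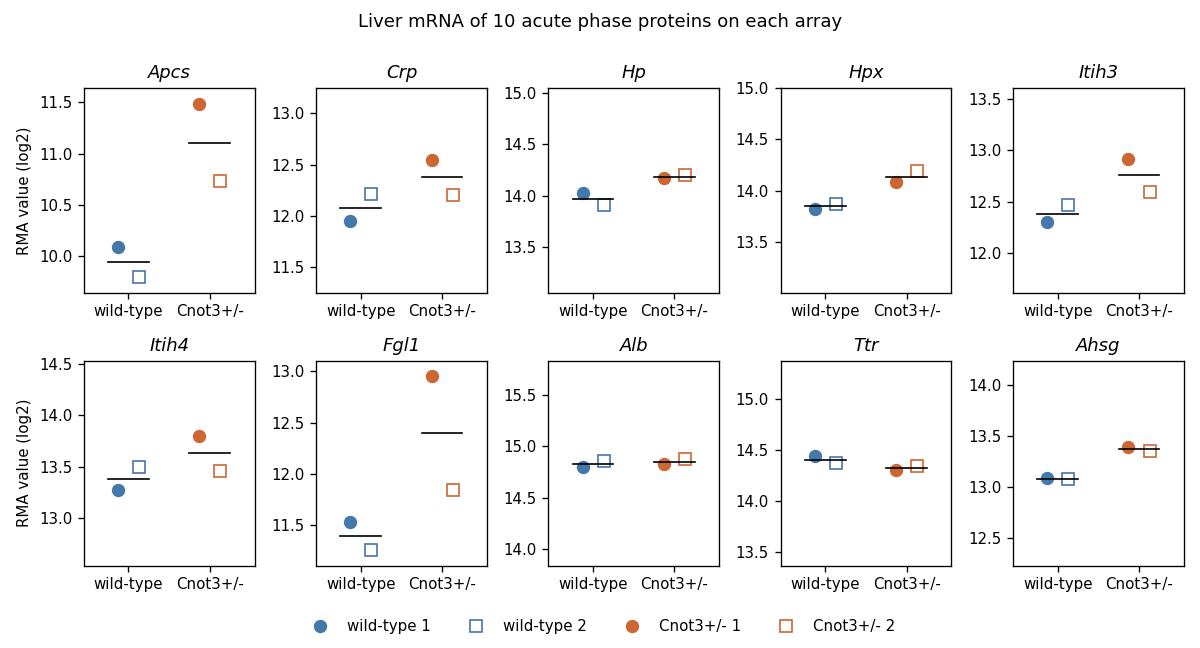
RMA expression values on a log2 axis for the 10 genes on each array, wild-type in blue and arrays labelled Cnot3+/- in orange, with circles for mouse 1, squares for mouse 2 and a bar at the group mean; every panel spans the same number of log2 units. Apcs and Fgl1 show the widest steps between genotypes and the widest gap between the Cnot3+/- arrays, and the points of Alb and Ttr lie nearly level.

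Apcs and Crp encode the short pentraxins, ring-shaped plasma proteins that bind microbial and nuclear debris. Apcs had log2 values of 10.09 and 9.80 on the wild-type arrays, 11.49 on Cnot3+/- 1 and 10.73 on Cnot3+/- 2. Both arrays labelled Cnot3+/- were above both wild-type arrays. The genotypes were 1.16 apart (SE 0.28, n = 2 in each, limma adjusted p = 0.999), a 2.24-fold higher level with a 95% confidence interval from 1.36 to 3.69. Its unadjusted p of 0.0087 from limma was the 64th smallest of the 13379 genes. Without limma's moderation of variances the unadjusted p was 0.10, so the narrower interval rests on that moderation. The difference exceeded the gap between the Cnot3+/- arrays, 0.76, and was 0.78 without Cnot3+/- 1 and 1.54 without Cnot3+/- 2. Crp gave 11.95 and 12.21 on the wild-type arrays against 12.55 and 12.21 on those labelled Cnot3+/-. Cnot3+/- 2 lay just under wild-type 2, so the groups overlapped, and the difference of 0.29 (SE 0.18) was smaller than the gap of 0.34 between the Cnot3+/- arrays. It was 0.12 without Cnot3+/- 1, 0.17 without wild-type 1 and 0.47 without Cnot3+/- 2. The interval for Crp ran from -0.17 to 0.76. The long pentraxin Ptx3 did not pass the filter on dim probe sets, and the neuronal Nptx1, a dim probe set, differed by 0.

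Apcs and Crp follow each other on chromosome 1 with 0 tested genes between them in the order of assembly GRCm38.p6, and so do Itih4 and Itih3 on chromosome 14. Their promoter windows are shown because each pair is of the same family and adjacent in gene order. The promoter windows, 250 bases before and 50 after the RefSeq gene start, were examined for only 7 of the 10 genes. They were searched on both strands for a STAT site (TTCNNNGAA), the interleukin-6 type II element (CTGGGAA), a C/EBP site (TTGCNNAA), an NF-kappaB site (GGGNNTTTC), an HNF1 core (GTTAAT) and a TATA box (TATAAA). In the sequences below, from RefSeq on build GRCm38.p6 and read 5′ to 3′ on the gene's own strand, capitals mark every match except the TATA box. The Apcs window lies at chr1:172895005-172895304 on the minus strand and the Crp window at chr1:172697806-172698105 on the plus strand. Those of Itih3 and Itih4 lie at chr14:30923538-30923837 (minus) and chr14:30886226-30886525 (plus). That of Ahsg, printed as the negative member with the largest difference and not for a family pair, lies at chr16:22891765-22892064 (plus).
Apcs: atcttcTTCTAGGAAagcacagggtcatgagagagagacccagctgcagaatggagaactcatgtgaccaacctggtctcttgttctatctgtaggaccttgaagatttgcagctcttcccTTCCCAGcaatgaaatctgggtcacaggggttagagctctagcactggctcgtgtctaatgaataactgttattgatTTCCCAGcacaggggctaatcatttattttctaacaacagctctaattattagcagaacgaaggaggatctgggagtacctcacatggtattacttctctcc
Crp: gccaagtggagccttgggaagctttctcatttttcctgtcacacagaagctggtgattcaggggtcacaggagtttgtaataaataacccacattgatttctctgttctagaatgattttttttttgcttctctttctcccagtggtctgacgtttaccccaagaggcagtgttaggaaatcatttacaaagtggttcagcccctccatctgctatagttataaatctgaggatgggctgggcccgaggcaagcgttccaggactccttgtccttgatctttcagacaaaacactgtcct
Itih3: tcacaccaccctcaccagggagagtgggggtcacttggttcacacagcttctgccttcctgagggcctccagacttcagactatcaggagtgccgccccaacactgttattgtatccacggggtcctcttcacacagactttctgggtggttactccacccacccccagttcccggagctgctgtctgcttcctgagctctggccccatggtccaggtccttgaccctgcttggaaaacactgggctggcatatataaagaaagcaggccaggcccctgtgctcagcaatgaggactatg
Itih4: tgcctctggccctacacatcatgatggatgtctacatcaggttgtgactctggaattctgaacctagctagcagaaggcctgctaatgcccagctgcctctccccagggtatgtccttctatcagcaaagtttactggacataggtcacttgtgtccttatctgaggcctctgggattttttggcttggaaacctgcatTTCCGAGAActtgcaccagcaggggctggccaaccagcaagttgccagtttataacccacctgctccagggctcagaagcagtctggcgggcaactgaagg
Ahsg: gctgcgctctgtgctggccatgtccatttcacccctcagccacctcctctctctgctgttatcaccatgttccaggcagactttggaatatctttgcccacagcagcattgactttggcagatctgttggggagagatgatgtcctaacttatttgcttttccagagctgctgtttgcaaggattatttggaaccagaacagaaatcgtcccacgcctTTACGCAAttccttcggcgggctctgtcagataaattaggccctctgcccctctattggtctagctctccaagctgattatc

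The Apcs window held a STAT site from -244 to -236 and the type II element at -129 to -123 and again at -52 to -46, both on the opposite strand. Of 32851 promoter windows of the same length, 8.30% held the STAT site and 11.1% the type II element. The Crp window held neither, and its 1 match was a TATA box from -31 to -26. Itih4 held a STAT site from -51 to -43, and Itih3 held none of the motifs other than the TATA box. Ahsg held a C/EBP site from -32 to -25, a motif found in 10.8% of all windows. Among the windows not printed, Hpx held a C/EBP site from -200 to -193, and Alb a C/EBP site from -94 to -87 and an HNF1 core from -32 to -27. The NF-kappaB letters were in 0 of the 7 windows and in 4.36% of all windows. A match is a run of letters and not a measured binding site.

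Hp and Hpx encode haptoglobin and haemopexin, which carry free haemoglobin and free haem out of the plasma. Hp stood at 14.02 and 13.91 on the wild-type arrays against 14.17 and 14.20 on those labelled Cnot3+/-. The groups did not overlap, and the difference was 0.22 (SE 0.13), with an interval from -0.12 to 0.55. Hpx stood at 13.82 and 13.87 on the wild-type arrays against 14.08 and 14.19 on those labelled Cnot3+/-. Its difference of 0.29 (SE 0.13, interval from -0.047 to 0.62) was larger than the gaps within the groups, which were 0.054 and 0.11. Hp and Hpx were also the positive members whose higher value fell on Cnot3+/- 2. Both probe sets lie near the top of the scale, whose highest values were 14.89 to 14.96 per array, where array signal can compress a ratio.

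Among genes of haemoglobin and haem disposal, the widest differences were those of Hmox1 and Cd163. Cd163, the macrophage receptor for haptoglobin-haemoglobin, had 8.23 and 7.91 on the wild-type arrays, 8.18 on Cnot3+/- 1 and 9.75 on Cnot3+/- 2. Hmox1, which encodes the haem-degrading enzyme haem oxygenase 1, had 6.64 and 6.94 on the wild-type arrays, 6.92 on Cnot3+/- 1 and 8.62 on Cnot3+/- 2. In both genes Cnot3+/- 1 lay between the wild-type arrays and Cnot3+/- 2 alone was high, as the macrophage markers were. Lrp1, the haemopexin receptor gene, differed by 0.42 (SE 0.27). Of the 10 tested genes of haemoglobin and haem disposal, Hp and Hpx included, 6 were higher and 4 lower. Over all genes 47.9% were above 0. limma called 0, and 0 had an unadjusted p under 0.05.

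Itih3 and Itih4 encode heavy chains of the inter-alpha-trypsin inhibitor family, plasma proteins that bind and stabilise hyaluronan in the case of the classical chains. Itih3 gave 12.30 and 12.46 on the wild-type arrays against 12.92 and 12.59 on those labelled Cnot3+/-. The groups did not overlap, and the difference was 0.37 (SE 0.17, interval from -0.061 to 0.81), against a gap of 0.33 between the Cnot3+/- arrays. It was 0.21 without Cnot3+/- 1 and 0.54 without Cnot3+/- 2. Itih4 gave 13.27 and 13.49 on the wild-type arrays against 13.80 and 13.46 on those labelled Cnot3+/-. Cnot3+/- 2 lay below wild-type 2, and the difference of 0.25 (SE 0.18) became 0.079 without Cnot3+/- 1 and 0.14 without wild-type 1. Itih1, which adjoins Itih3 on the same chromosome, differed by 0.0024 (SE 0.18), and Itih2 by 0.044 (SE 0.13). Itih5 differed by 0.18 (SE 0.25), and Ambp, whose product bikunin is the light chain of the inhibitor, by 0.095 (SE 0.13). Over the 6 tested genes of the family the median difference was 0.14, limma called 0, and 0 had an unadjusted p under 0.05. Whether the members of the family differ from one another was not tested.

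Fgl1 encodes hepassocin, a fibrinogen-like protein secreted by hepatocytes. Its values were 11.53 and 11.25 on the wild-type arrays, 12.95 on Cnot3+/- 1 and 11.84 on Cnot3+/- 2. Both Cnot3+/- arrays were above both wild-type arrays, but far apart from each other. The difference of 1.01 (SE 0.38, adjusted p = 0.999) corresponded to a 2.01-fold higher level with an interval from 1.03 to 3.92. The unadjusted p from limma was 0.043, and without its moderation of variances it was 0.22. The difference was smaller than the gap of 1.11 between the Cnot3+/- arrays, and was 0.45 without Cnot3+/- 1 and 1.56 without Cnot3+/- 2. The fibrinogen chain genes, also positive acute phase genes, lay close to wild-type: Fga differed by 0.089 (SE 0.13), Fgb by 0.10 (SE 0.20) and Fgg by 0.060 (SE 0.16). Fgl2, a related gene of macrophages and endothelium, stood at 6.33 on Cnot3+/- 2 and between 3.60 and 4.27 on the other 3 arrays.

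**Figure D2:**
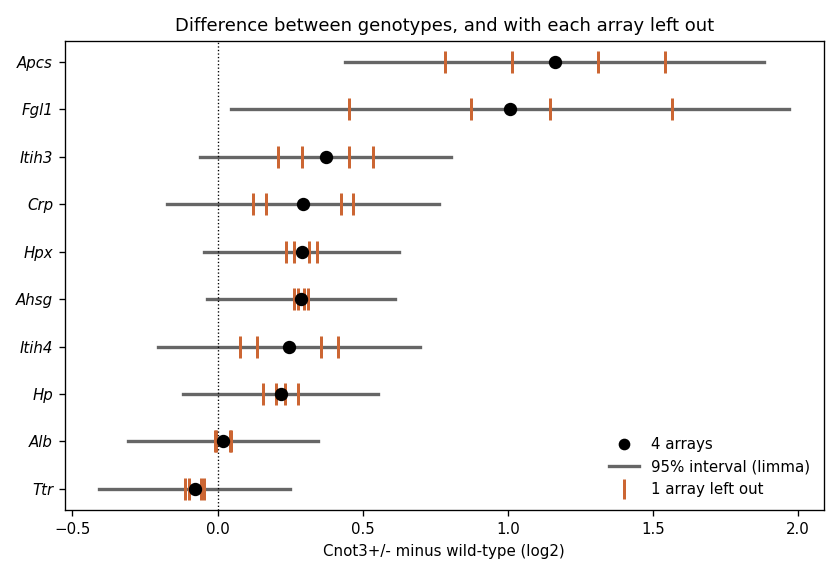
Difference of the arrays labelled Cnot3+/- from wild-type on the log2 scale (horizontal axis) for each gene, with the estimate from 4 arrays as a black point, its 95% interval from limma as a grey bar, and the 4 estimates with 1 array left out as orange ticks. Every tick of the 7 positive genes and of Ahsg lies above 0, the ticks of Alb lie on both sides of 0, and the ticks of Apcs run from 0.78 to 1.54.

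The negative acute phase genes did not share a direction. Alb encodes albumin, the main carrier and osmotic protein of plasma, with wild-type values of 14.80 and 14.86 and Cnot3+/- values of 14.83 and 14.87. The arrays interleaved, and the difference was 0.020 (SE 0.13), with a fold interval from 0.81 to 1.27 that leaves out a 2-fold fall on the array's scale. These values lie within reach of the highest of any probe set, and whether the probe set was saturated was not tested. Ttr encodes transthyretin, which carries thyroxine and the retinol-binding protein. Its probe set used for the gene had 14.44 and 14.37 on the wild-type arrays against 14.30 and 14.35 on those labelled Cnot3+/-, a difference of -0.079 (SE 0.13, interval from -0.41 to 0.25). The groups did not overlap on it, where 17.4% of all genes tested were lower without overlap.

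The other 3 Ttr probe sets, all of kinds that can match several transcripts, gave differences of -0.047 (SE 0.12), -0.061 (SE 0.12) and -0.050 (SE 0.13) in a fit over all 45101 probe sets. That fit called 0 of the 13 member probe sets, where 0.00443% of all probe sets were called. All 4 probe sets read the same RNA, so their shared sign is no repeat of the measurement. On the _s_at probe set the groups overlapped, with 14.16 and 14.25 on the wild-type arrays against 14.11 and 14.20 on those labelled Cnot3+/-.

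Ahsg had higher values in Cnot3+/-. It encodes fetuin-A, a plasma inhibitor of calcification that is classed among the negative acute phase proteins. Its log2 values were 13.09 and 13.07 on the wild-type arrays against 13.39 and 13.35 on those labelled Cnot3+/-. The gaps within the groups, 0.018 and 0.045, were small against the difference of 0.29 (SE 0.13, interval from -0.037 to 0.61, adjusted p = 0.999). Leaving out any 1 array kept it between 0.26 and 0.31. The SE from limma was drawn towards the pooled spread of all genes, and without that moderation the unadjusted p was 0.0071. Its neighbours in gene order and in family, Fetub and Hrg, differed by 0.25 (SE 0.22) and 0.17 (SE 0.16), in both cases with overlapping groups. Kng1, another cystatin-type plasma protein gene, differed by 0.21 (SE 0.16). Beside Alb on chromosome 5, Afm, which encodes the vitamin E carrier afamin, had 11.79 and 11.87 on the wild-type arrays against 11.64 and 11.60 on those labelled Cnot3+/-, a difference of -0.21 (SE 0.13). The foetal albumin gene Afp was dim, at 4.36 to 4.53 on the 4 arrays.

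The arrays labelled Cnot3+/- ordered the positive members differently. Relative to each gene's wild-type mean, Cnot3+/- 1 was the higher in Apcs, Crp, Itih3, Itih4 and Fgl1, and Cnot3+/- 2 in Hp and Hpx. The mean over the 7 positive genes exceeded wild-type by 0.71 on Cnot3+/- 1 and by 0.32 on Cnot3+/- 2, and the median by 0.47 and 0.23. For the 3 negative genes the means were 0.069 and 0.083. The mean of the macrophage markers was below both wild-type arrays on Cnot3+/- 1 and above both on Cnot3+/- 2. So were the means of the T and NK cell markers and of the stellate and fibroblast markers. Whether any of these bears on the positive genes was not tested.

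**Figure D3:**
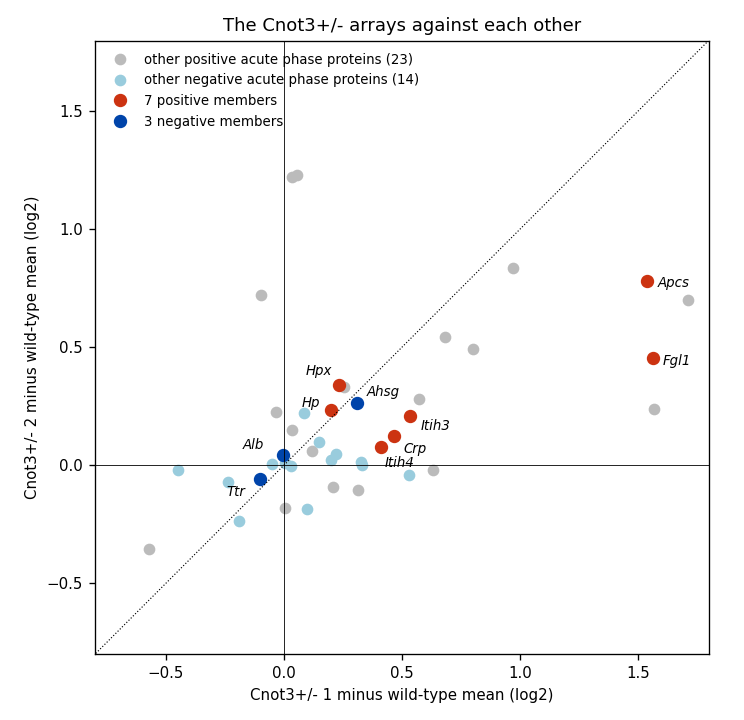
Value on Cnot3+/- 2 against value on Cnot3+/- 1, each minus the gene's wild-type mean on the log2 scale, for the positive members (red), the negative members (dark blue) and other acute phase proteins (grey and light blue); the dotted line marks equal values, and 5 genes, Lcn2, Mt2, Orm2, Saa1 and Saa2, lie outside the axes. The 7 red points lie in the upper right part, with Apcs and Fgl1 at 1.54 and 1.56 on the horizontal axis and 0.78 and 0.45 on the vertical one.

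Among other positive acute phase proteins, 21 of 23 tested genes had higher values and 15 were higher without overlap, with a median difference of 0.61, where 47.9% of all genes were above 0 and 14.1% were higher without overlap. Lcn2, which encodes the siderophore-binding lipocalin 2, rose and was the 1 gene of the list called (log2 difference 4.22, SE 0.14, adjusted p = 0.00687). Its difference stayed between 4.12 and 4.31 under the 14 alternatives, but the call was lost in 4 of them: without wild-type 1 (adjusted p = 0.967), without wild-type 2 (0.678), with the replicate number as a block (0.266) and without moderation of variances (0.548). The next in size were the serum amyloid A genes Saa2 at 3.98 (SE 0.60) and Saa1 at 3.02 (SE 0.55) and the metallothionein gene Mt2 at 2.29 (SE 0.61). Saa2 was read by an _x_at probe set, a kind that can match several transcripts. The wild-type arrays lay apart in Saa2, at 7.09 and 8.84, and in Saa1, at 9.23 and 10.91. Mt2 stood at 12.07 on Cnot3+/- 1 and 10.40 on Cnot3+/- 2. The differences of the 7 positive members, at most 1.16, were all smaller than those of Lcn2, Saa2, Saa1 and Mt2. Among 14 other negative acute phase proteins, 9 were higher and 5 lower, with a median of 0.063 and 0 called by limma, where 0 had an unadjusted p under 0.05. The largest in size were Fetub, the thyroxine-binding globulin gene Serpina7 at -0.23 (SE 0.19), and Afm.

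Genes linked to thyroxine and retinol carriage or action, Ttr itself included, had a median difference of -0.23. Rbp4, the retinol-binding protein, differed by 0.014 (SE 0.13). Dio1, the hepatic deiodinase that activates thyroxine, gave 11.02 and 10.53 on the wild-type arrays against 10.61 and 9.95 on those labelled Cnot3+/-, a difference of -0.50 (SE 0.28) with overlapping groups. Thrsp, a lipogenic gene that thyroid hormone induces, differed by -0.42 (SE 0.17). Stra6, the retinol-binding protein receptor gene, was dim and differed by -0.43 (SE 0.17). Of the 7 tested genes of this list, Ttr and Alb among them, 2 were higher and 5 lower, where 47.9% of all genes were above 0. In 3 the groups did not overlap and were lower, where 17.4% of all genes were so. limma called 0, and Stra6 was the 1 with an unadjusted p under 0.05, where the share over all genes was 3.59%.

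Of 22 genes for acute phase signalling, 18 were higher and 4 lower, where 47.9% of all genes were above 0. Their median difference was 0.16. limma called 0 of them, and 2, Il1r1 and Stat3, had an unadjusted p under 0.05, where the share over all genes was 3.59%. Stat3, the transcription factor downstream of interleukin-6, gave 8.88 and 9.29 on the wild-type arrays against 9.71 and 9.68 on those labelled Cnot3+/-, a difference of 0.61 (SE 0.18). The interleukin-1 receptor gene Il1r1 differed by 0.65 (SE 0.21) and Socs3, a feedback inhibitor that STAT3 induces, by 0.64 (SE 0.29). In this list wild-type 2 stood above wild-type 1, with mean log2 values of 8.47 and 8.21, against 8.49 and 8.61 in Cnot3+/-. By this mean Cnot3+/- 1 lay level with wild-type 2, which does not hold for each gene, as the values of Stat3 show. The positive members themselves had a mean of 12.43 on both wild-type arrays, but this mean joins genes with opposite gaps. Wild-type 1 was the higher in Apcs, Fgl1 and Hp and the lower in Crp, Itih3, Itih4 and Hpx. Whether the signalling genes bear on the values of the members was not tested.

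**Figure D4:**
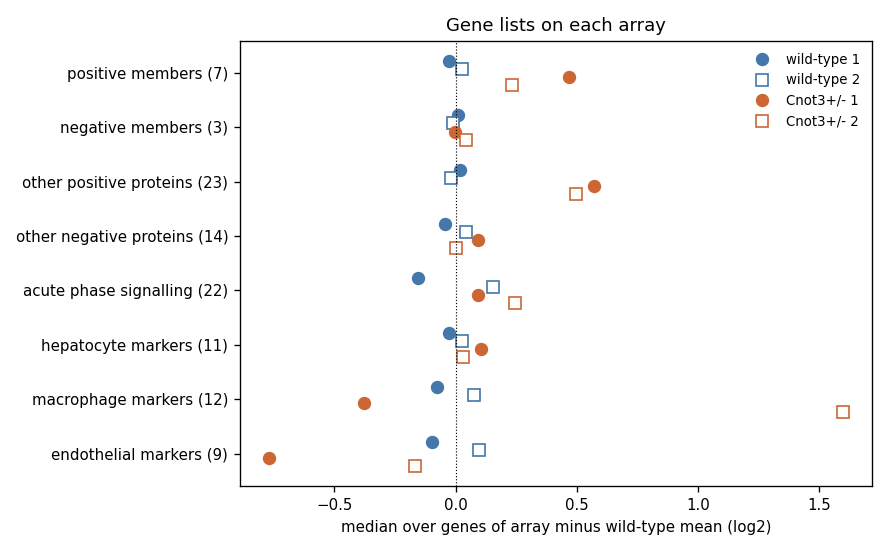
Median over the genes of each list of the array value minus the gene's wild-type mean (log2, horizontal axis), with wild-type in blue, arrays labelled Cnot3+/- in orange, circles for mouse 1 and squares for mouse 2, and the number of genes tested in brackets. Positive members lie at 0.47 and 0.23 in Cnot3+/-, negative members near 0, and macrophage markers at -0.38 and 1.60.

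The genes nearest to Apcs, by the root mean square difference of log2 values relative to the wild-type mean over the 4 arrays, were Scara5 at 0.13, Aldh1b1 at 0.18, Slc41a2 and Setd7 at 0.26, and Orm3 at 0.28. Scara5, a scavenger receptor for ferritin, gave 8.52 and 8.06 on the wild-type arrays against 9.67 and 8.89 on those labelled Cnot3+/-. Orm3 belongs to the orosomucoid genes, which are acute phase genes themselves and close in sequence to one another. The mean profile of the 10 genes was approached most closely by Ube4b at 0.015, Them6 at 0.029, Marf1 at 0.038, Ptgds at 0.041 and Agxt2 at 0.045. With 4 arrays, likeness of this kind describes these animals alone.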

How the data were processed

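Liver RNA was measured on 4 arrays, 2 per genotype. The deposited values are log2 expression values, for which the submitters' processing notes name RMA as the authors' method. The sources used here do not give its version or the set of arrays it was run on. RMA shrinks differences of dim probe sets. The 4 columns were used as deposited, with 0 left over. The dimmest 40% of 45101 probe sets (mean log2 up to 4.06) were left out, and each gene was read by its brightest probe set, with _x_at or _s_at kinds used where there was no other.

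Groups were compared by lmFit and eBayes in limma 3.58.1 under R 4.3.3, two-sided, with no covariate and Benjamini-Hochberg adjustment over 13379 genes. A second fit covered all probe sets. The code of the fit was tried on simulated data with normal noise and planted differences. That trial checks the code and was not used to judge the differences of the members. Differences are Cnot3+/- minus wild-type, the SE is limma's moderated one and the intervals are at 95%. Alternatives left out arrays in turn, blocked by replicate number, or changed scaling, filter, moderation, weights or probe set. The members and lists were chosen with earlier results of these data known. Genes named are the members, the called and 3 largest genes of each list, and the nearest profiles. Fga, Fgg, Itih1, Itih2, Ambp, Afp, Hrg, Rbp4, Mt2, Orm2, Cnot3, Slc7a2, Mtus1 and Pcm1 were added after their values were seen. A planned comparison of the members' protein sequences was not done.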

Additional observations from a re-analysis of the deposited data

How the results depend on the processing

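None of the 10 genes was called under any of the 14 alternatives, but 7 of these (the block, both filters, the variance settings and array weights) leave every member's difference as it is and bear only on the call. Under the 7 that can move a difference, 9 members kept their direction; averaging of probe sets moved Ttr alone. Alb, whose main difference was 0.020, ranged from -0.0084 to 0.047 with 1 array left out. It was below 0 when wild-type 1 was dropped (-0.0084) or Cnot3+/- 2 was dropped (-0.0043), in the gene and probe set fits alike, and 0 after quantile normalization. The number of members above 0 was 8 or 9. With all arrays kept, 5 or 6 positive members were higher without overlap. Both counts were made after seeing the data. With 1 array left out, 1 array stands against 2 and non-overlap is easier to reach, so the second count is not comparable there. The number of genes called ranged from 0 to 38 with 1 array left out, all of them higher: 0 without either wild-type array, 38 without Cnot3+/- 1 and 2 without Cnot3+/- 2. Without eBayes it was 1 higher and 1 lower. With the replicate number as a block it was 0. Deviations of same-numbered arrays from their group means correlated at 0.16 over genes, which with 2 pairs does not settle a pairing. Scaling moved the median of all genes from -0.0087 to -0.029 at most. The bright probe sets of Alb, Ttr, Hp and Hpx limit what a ratio can show.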

Other observations

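Transcription factors of hepatocyte identity, which drive the basal output of the plasma protein genes, varied around wild-type. Of 8 tested genes 3 were higher and 5 lower, where 47.9% of all genes were above 0. The median difference was -0.054. limma called 0 of them, and Foxa2 was the 1 gene with an unadjusted p under 0.05, where the share over all genes was 3.59%. Foxa2 gave 9.10 and 9.27 in wild-type and 8.59 on both arrays labelled Cnot3+/-, a difference of -0.60 (SE 0.14, limma adjusted p = 0.999). Nr1h4, the bile acid receptor gene, differed by -0.35 (SE 0.19), and Foxa3 by 0.22 (SE 0.25).

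Slc7a2, a gene for a cationic amino acid transporter that lies 2 steps from Fgl1 in the order of tested genes on chromosome 8, was chosen after its values were seen. It stood at 10.71 and 10.98 on the wild-type arrays, 11.67 on Cnot3+/- 1 and 11.35 on Cnot3+/- 2, a difference of 0.67 (SE 0.18). The genes on either side of Fgl1, Mtus1 and Pcm1, differed by 0.35 (SE 0.20) and 0.20 (SE 0.13).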
